A study of Mus musculus with 7 samples.

Results

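Wnt pathway genes were examined in the growth plate, the cartilage layer near each end of a long bone in which chondrocytes divide, enlarge and give way to bone. The set held 46 genes of the 43346 in the deposited counts, chosen by gene symbol: 7 Wnt ligands, 9 frizzled receptors, 3 co-receptors of the Lrp family, 3 tyrosine kinase receptors, 11 secreted antagonists, 4 cytoplasmic components, 5 nuclear factors, and 4 R-spondin receptors or ubiquitin ligases. RNA came from tibial growth plates of 7 male F1 mice from a cross of C57BL/6J (B6) and CAST/EiJ (CAST), 21 d old, with no treatment and no second condition. Every autosome is present in a B6 and a CAST version in these animals, and the deposited values are estimated counts per gene for each allele. The comparison open to these data is therefore allele-specific expression (ASE), the CAST allele against the B6 allele of the same gene in the same mice. Mice are numbered 1, 2, 3, 4, 5, 7 and 8 as in the labels. All 7 came from the same cross, so strain of origin and parent of origin cannot be told apart. The labels name separate mice. Tests that pair the 2 alleles of a mouse measure the spread of their difference between these 7. The main allele test, without that pairing, treats the 14 allele columns as separate libraries.

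Wnt ligands are secreted, lipid-modified proteins that bind frizzled receptors. With an Lrp5 or Lrp6 co-receptor they stop a cytoplasmic complex built on Axin and Apc from degrading β-catenin, which then acts with Tcf and Lef proteins on target genes. Other ligands, such as Wnt5a, act through Ror and Ryk receptors on cell polarity and movement. Secreted antagonists bind either the ligands (the Sfrp family and Wif1) or the co-receptors (Dkk1 and Sost). In the growth plate the pathway takes part in the ordering of proliferating and hypertrophic chondrocytes and in the handover from cartilage to bone.

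Depth was 14098019 to 37849667 estimated counts per mouse, of which 49.4% to 49.9% lay on the CAST allele. The small structural RNAs Rn7s1, Rn7s2 and Rn7sk took 15.5% to 23.8% of each mouse's counts. The label calls the tissue growth plate chondrocyte. Summed levels of 10 chondrocyte markers were 66465 to 106360 CPM (counts per 1000000 counts of the library), and those of 8 osteoblast markers were 74083 to 126293 CPM. Nearly all of the osteoblast sum came from the type I collagen genes Col1a1 and Col1a2, which other connective tissue cells also express, and the other 6 genes summed to 2869 to 3545 CPM. Of 12 marker lists, 10 had every gene at 10 or more counts in every mouse, among them erythroid (summed level 8337 to 20252 CPM), osteoclast (4134 to 6008), skeletal muscle (3524 to 7714), neutrophil (1474 to 3178), B lymphoid (164 to 379) and endothelial markers (228 to 318). The exceptions were the osteocyte list, with 3 of 4 genes at that level (238 to 418 CPM), and the T lymphoid list, with 3 of 5 (8.66 to 14.3 CPM). In such whole tissue, fewer cells of a type and less RNA per cell cannot be told apart.

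All 46 genes had at least 10 counts in every mouse, from a mean of 24.7 counts per mouse for Rnf43 to 14189 for Ctnnb1. Together they made up 1864 ± 187 CPM (SD, n = 7). To compare genes with each other, the CPM of both alleles was divided by the length of the gene's annotated exons in kilobases (CPM per kb). On that scale 7 of the 14 most abundant genes were secreted antagonists.

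Among the ligands, Wnt5b, which is made by prehypertrophic chondrocytes, had the highest level at 14.4 ± 1.98 CPM per kb (SD, n = 7) and ranged from 10.96 to 17.3 over the mice. Wnt4 followed at 4.88 ± 0.392 CPM per kb, and all 7 mice lay between 4.47 and 5.47, below every Wnt5b value. The other 5 ligands, Wnt11, Wnt5a, Wnt10b, Wnt9a and Wnt16, averaged 0.843 to 2.56 CPM per kb. Of the frizzled receptors, Fzd9 stood at 14.3 ± 2.06 CPM per kb and Fzd1 at 7.92 ± 1.32 (SD, n = 7). The ranges of this pair did not overlap, with 11.6 to 17.0 for Fzd9 and 5.78 to 10.2 for Fzd1. Fzd7 reached 7.12 ± 0.815 CPM per kb, within the spread of Fzd1, and Fzd3 was the lowest frizzled gene at 0.316 ± 0.0750.

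Lrp4, which also serves as a docking protein for sclerostin in bone, had 14.2 ± 2.52 CPM per kb, against 10.7 ± 1.51 for Lrp5 and 6.07 ± 0.704 for Lrp6 (SD, n = 7). The Lrp6 values, 5.04 to 7.07 CPM per kb, lay below all Lrp5 values, whereas Lrp5 and Lrp4 overlapped. Of the tyrosine kinase receptors, Ryk had 13.9 ± 1.29 CPM per kb, Ror2 had 4.06 ± 0.598 and Ror1 had 1.04 ± 0.291. Wnt5b, Fzd9, Lrp4 and Ryk thus averaged within 13.9 to 14.4 CPM per kb, closer to each other than the SD of any of them.

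Wif1, which binds Wnt ligands outside the cell, was the second most abundant of the 46 genes at 37.4 ± 5.90 CPM per kb (SD, n = 7). Its lowest mouse, at 29.0 CPM per kb, was above the highest mouse of Frzb, a frizzled-like antagonist of cartilage, which had 19.04 ± 1.66 and a maximum of 20.7. Sost (sclerostin, an antagonist made by osteocytes), Dkk3, Sfrp4, Sfrp5 and Dkk1 averaged 9.65 to 12.5 CPM per kb, and their ranges overlapped. Sfrp2 and Notum, an esterase that removes the lipid from Wnt proteins, averaged 7.61 and 5.96 CPM per kb. Sfrp1 and Dkk2 were the lowest antagonists, at 1.93 and 1.99 CPM per kb.

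Inside the cell, Ctnnb1 (β-catenin, which also serves in cell junctions) had by far the highest level of the set at 102 ± 12.8 CPM per kb, with 77.4 in its lowest mouse. The scaffold genes Axin1 and Axin2 differed in level, at 11.8 ± 0.873 against 1.86 ± 0.305 CPM per kb (SD, n = 7), and Apc had 2.40 ± 0.316. Tle3, a co-repressor that binds Tcf proteins, was the most abundant nuclear factor at 5.88 ± 0.866 CPM per kb, followed by Tcf7 at 4.24 ± 0.929, and their ranges overlapped. Lef1, Tcf7l2 and Tcf7l1 averaged 2.49, 1.49 and 1.11 CPM per kb. Of the R-spondin branch, Lgr4 had 5.39 ± 0.801 and Znrf3 had 1.48 ± 0.158 CPM per kb, while Lgr5 and Rnf43 were at 0.427 ± 0.0517 and 0.138 ± 0.0397.

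**Figure D1:**
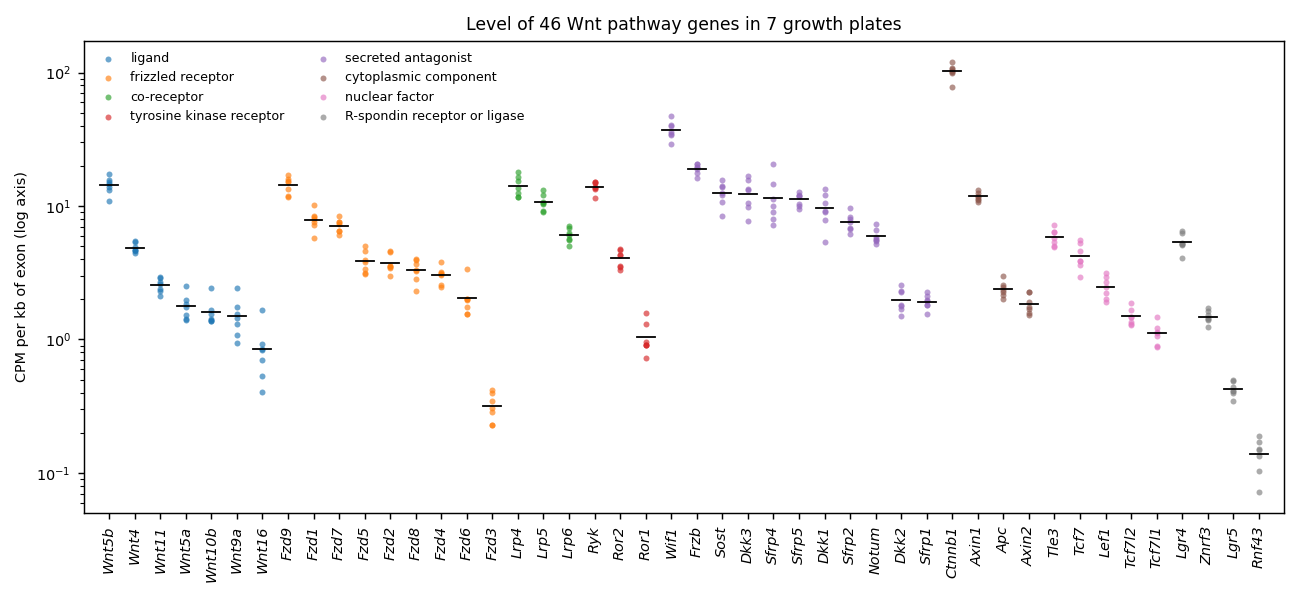
Level of each of the 46 genes in CPM per kb of annotated exon on a log axis. Points are the 7 mice, colored by role, and bars are means; Ctnnb1 at 102 and Wif1 at 37.4 CPM per kb lie above the other genes, and Rnf43 at 0.138 lies lowest.

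The spread of the 46 genes between mice was close to that of genes at large. The coefficient of variation (CV, the SD in percent of the mean CPM) had a median of 15.7% over the 46 genes, against 15.1% over the 15111 genes that reached 10 counts in each mouse. Axin1 varied least, with a CV of 7.41% and a range of 40.8 to 50.7 CPM. Wnt4 and Frzb followed at 8.04% and 8.72%. A CV above 25% was found for 8 genes: Wnt16, Sfrp4, Wnt9a, Fzd6, Rnf43, Dkk1, Ror1 and Dkk3.

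Wnt16, a ligand known from cortical bone, varied most. Its level was 3.04, 2.32, 7.21, 3.71, 1.77, 4.04 and 3.63 CPM in mice 1, 2, 3, 4, 5, 7 and 8, a 4.07-fold range with a CV of 47.8%. Mouse 3 was the highest, and without it the CV was 28.7%. The same mouse was highest for Sfrp4 (85.9 CPM, against 30.1 to 61.3 in the others), Wnt9a (8.04 CPM, against 3.12 to 5.79), Fzd6 (16.2 CPM, against 7.43 to 9.72) and Wnt10b (8.26 CPM, against 4.64 to 5.61). Without mouse 3 the CV fell from 40.6% to 26.8% for Sfrp4, from 32.7% to 22.4% for Wnt9a, from 30.8% to 12.4% for Fzd6 and from 23.8% to 7.95% for Wnt10b. The spread of these 5 genes thus rested in large part on 1 library.

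Mouse 3 had the lowest summed level of erythroid (8337 CPM), B lymphoid (164 CPM) and T lymphoid (8.66 CPM) markers and the highest of 5 tendon and perichondrium markers (1817 CPM, against 1341 to 1722 in the others). Nearly all of this last sum came from Fmod and Postn, with medians of 1271 and 307 CPM, against 4.22 to 22.9 CPM for Scx, Mkx and Tnmd. The part of tissue makeup in the levels of Wnt16, Sfrp4, Wnt9a, Fzd6 and Wnt10b was not tested. Dkk1, which blocks Lrp5 and Lrp6, spread differently, with 12.9 CPM in mouse 4 as its lowest and 32.7 CPM in mouse 7 as its highest value. Without mouse 4 its CV was 20.5% in place of 28.2%. Over the 46 genes, mouse 3 had the highest level for 18 and mouse 1 for 13, while mouse 4 had the lowest for 14 and mouse 5 for 12. The share of Rn7s1, Rn7s2 and Rn7sk was lowest in mouse 1 (15.5%) and 22.7% in mouse 4. With these RNAs left out of the totals the median CV was 15.4%.

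**Figure D2:**
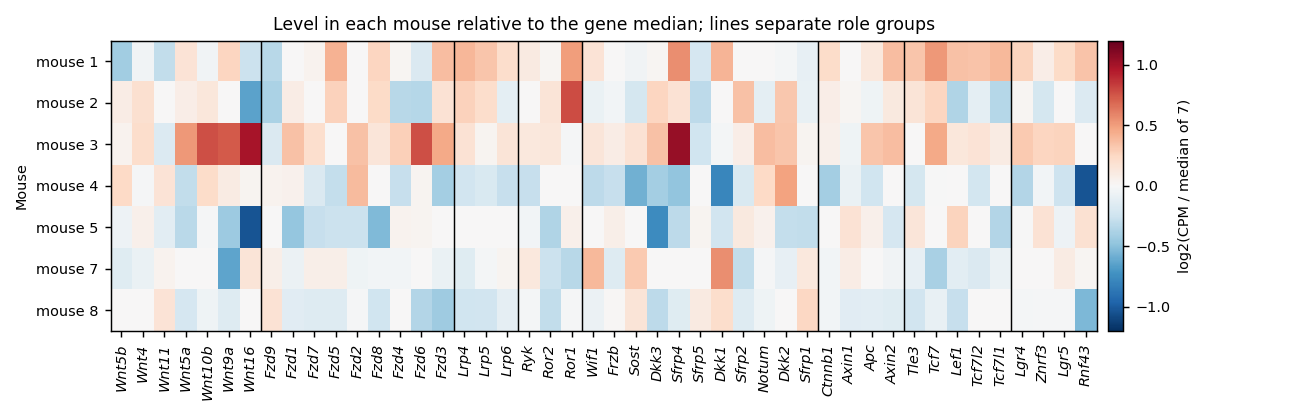
Level of each gene in each mouse as log2 of CPM over the gene's median of 7 mice, with lines between the role groups. Red cells of mouse 3 mark Wnt10b, Wnt9a, Wnt16, Fzd6 and Sfrp4, and blue cells mark Dkk1 and Rnf43 in mouse 4, Wnt16 and Dkk3 in mouse 5.

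Whether a member's level moved with the markers of a cell type was asked for 9 pairs of a gene and a marker list, over the 7 mice. The largest correlation was that of Wnt5b with the summed level of 6 hypertrophic chondrocyte markers (Col10a1, Ihh, Pth1r, Mef2c, Mmp13 and Panx3). Col10a1, at a median of 3515 CPM, made up most of this sum (median 4487 CPM), so the sum mainly follows that gene. Ihh, Mef2c and Panx3 had medians of only 67.2 to 72.8 CPM. Wnt5b was lowest in mouse 1 (29.1 CPM) and mouse 7 (35.1 CPM), the mice with the lowest marker sums (3419 and 3286 CPM), and highest in mouse 4 (45.96 CPM), which had the highest sum (4960 CPM). Pearson's r was 0.86 (exact permutation test, p = 0.0060; 0.0536 after Benjamini-Hochberg adjustment over the 9 pairs), and Spearman's rho was 0.89 (exact permutation test, p = 0.0123; adjusted 0.111). Mice 1 and 7 stood apart from the other 5 in the marker sum. Without them, the 2 farthest from the median of the marker sum, r was 0.94. Neither value passed 0.05 after adjustment. All values are shares of the same libraries, and the part of tissue makeup in the relation was not tested.

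Tcf7, a Tcf factor also known from T cells, had r = -0.78 with the T lymphoid markers (exact permutation test, p = 0.0444, adjusted 0.2; rho = -0.68, p = 0.110, adjusted 0.493), and r = -0.88 without mice 5 and 7. The T lymphoid sums were only 8.66 to 14.3 CPM. The other 7 pairs were Frzb with chondrocyte, Sost with osteocyte, Wif1 and Wnt16 with osteoblast, Lef1 with B lymphoid, Fzd4 with endothelial, and Sfrp2 with tendon and perichondrium markers. Their r ran from -0.42 for Frzb to 0.64 for Sfrp2 and their rho from -0.21 for Wnt16 to 0.57 for Sfrp2, with exact permutation p of 0.123 or more for r and of 0.2 or more for rho. The adjusted values were 0.369 or more for r and 0.600 or more for rho. Without the 2 mice farthest from the median of the marker sum, r ran from -0.54 for Fzd4 to 0.75 for Wnt16 over these pairs, and it changed sign for Frzb, Sost, Wnt16 and Fzd4.

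**Figure D3:**
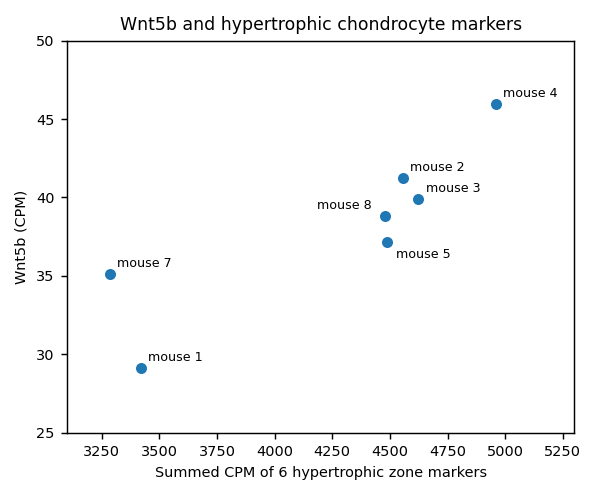
Wnt5b level (CPM) against the summed CPM of 6 hypertrophic chondrocyte markers, 1 point per mouse; both axes start above 0. Mice 1 and 7 lie at low sums of 3419 and 3286 CPM, and mouse 4 lies highest on both axes.

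The CAST and B6 alleles were then compared for all genes that had a B6 or a CAST count above 0 in each of the 7 mice. An FDR under 0.20 was called, after the study's own threshold, and positive log2 fold changes mean higher CAST expression. All 46 genes passed this filter, although Sfrp2 had equal counts on its alleles and could not be called, and 13 (28.3%) were called. Over all 21805 genes tested, 32.6% were called, and of the 20682 on autosomes, where all 46 lie, 31.2%. In a separate fit of the 15111 genes that reached 10 counts in each mouse, which include all 46, 37.1% were called, and 14 of the 46 (30.4%), with Znrf3 added to the 13. The CAST allele was higher for 8 of the 46, against a background of 15.4% in that direction, and the B6 allele for 5, against 17.2%. Both of these backgrounds include X-linked genes. With 1 library size per mouse in place of TMM factors per allele, the split turned to 5 CAST and 6 B6. The median log2 fold change was -0.01 over the 46 genes and 0.01 over all tested genes, and the median size of the change was 0.14 against 0.22. In the separate fit of genes with 10 counts in each mouse, the median size over those genes was 0.175. At an FDR under 0.05, 7 of the 46 were called, against 22.1% of all genes tested. The share of called genes in the set thus lay below the background here, and this difference was not tested.

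Because both alleles of a mouse were counted in the same library, the mouse can also be held as a block. With that block the quasi-likelihood test called 20 of the 46 genes (43.5%, against a background of 37.6%), with CAST higher for 9 and B6 for 11. These 20 held 10 of the 13 genes named above. The 10 others were Tle3, Lrp6, Wnt5a, Notum, Fzd9, Znrf3, Frzb, Fzd5, Fzd7 and Ror1, while Lgr5, Lgr4 and Tcf7l1 were no longer called. The likelihood-ratio test with the block called 26 (56.5%, background 42.7%). Both backgrounds are over all 21805 genes tested, which include genes with fewer than 10 counts, whereas all 46 reached 10 in each mouse. No background with the block was computed for genes of that filter, so the larger shares of the set cannot be read as an excess. In 10 genes (21.7%, background 28.3%) the same allele was higher in all 7 mice. These were Fzd8, Sfrp4, Axin2 and Lef1 with CAST higher, and Lrp6, Dkk1, Dkk3, Wif1, Notum and Tle3 with B6 higher.

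**Figure D4:**
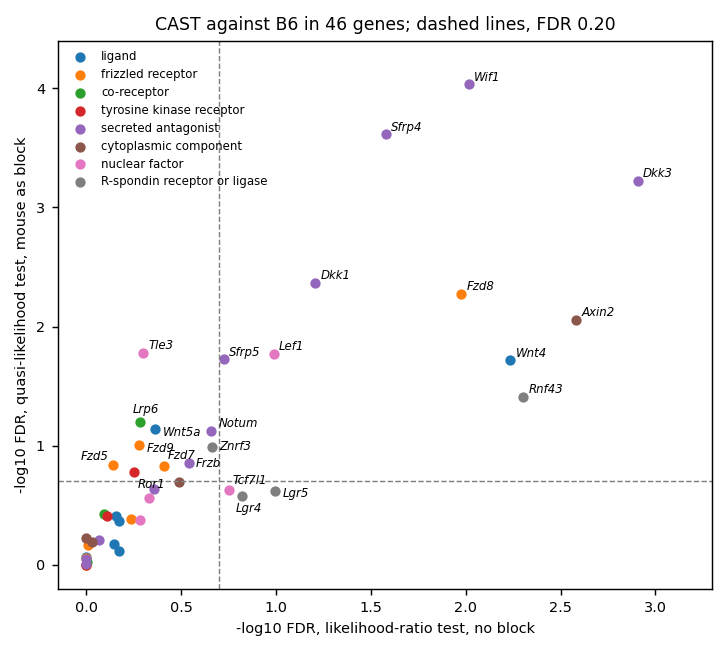
Each gene's FDR on a -log10 scale without (x) and with (y) the mouse as a block, colored by role, with dashed lines at an FDR of 0.20. Tle3 lies left of the vertical and above the horizontal line (FDR 0.503 and 0.0167), and Tcf7l1, Lgr4 and Lgr5 lie to the right and below.

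Of the 11 secreted antagonists, 5 were called, in a table where 32.6% of genes were. B6 was higher for Dkk3, Wif1 and Dkk1 and CAST for Sfrp4 and Sfrp5. Dkk3, a Dickkopf family member whose role in Wnt signaling is less settled than that of Dkk1, lies on chromosome 7 at chr7:112116017-112159057 (GRCm38, minus strand). Its CAST share of counts was 37.1%, 38.9%, 35.1%, 34.3%, 36.7%, 43.8% and 42.2% in mice 1, 2, 3, 4, 5, 7 and 8. Every mouse was thus below 50%, and on average no other called antagonist was this far from it. The CAST allele had 412 ± 142 and the B6 allele 676 ± 263 counts (SD, n = 7). The log2 fold change was -0.67 (edgeR FDR 0.00124; p = 0.0156 in an exact sign-flip test over mice, the smallest that 7 mice allow).

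Wif1 (chr10:121033960-121100650, plus strand) had the tightest allele ratio of the 13 called genes of the set. Its CAST share was 45.6%, 44.4%, 42.7%, 45.5%, 44.1%, 44.4% and 44.2% in the 7 mice in the same order, or 44.4% ± 0.959 (SD). With 1049 ± 308 CAST and 1316 ± 391 B6 counts the log2 fold change was only -0.31 (FDR 0.00964 from edgeR, and 9.25e-05 with the mouse as block). Dkk1 (chr19:30545863-30549665, minus strand) had CAST shares from 38.4% in mouse 3 over a median of 41.4% to 46.8% in mouse 4. All 7 mice had more B6 counts, with means of 255 ± 87.6 CAST and 349 ± 115 B6 counts. The log2 fold change was -0.42, with an FDR of 0.0619 from edgeR and 0.00427 with the mouse as block.

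Sfrp4, a frizzled-related protein that binds Wnt ligands (chr13:19623104-19632994, plus strand), differed the other way. Its CAST share was 62.1%, 59.7%, 59.8%, 55.4%, 59.7%, 64.1% and 58.9% in mice 1, 2, 3, 4, 5, 7 and 8. Although its level varied 2.85-fold between mice, the share stayed above 50% in all of them, the high library of mouse 3 included. The means were 775 ± 402 CAST and 514 ± 258 B6 counts (SD, n = 7), with a log2 fold change of 0.61 (FDR 0.0264 from edgeR, and 2.43e-04 with the mouse as block). Sfrp5 (chr19:42197971-42202252, minus strand) had CAST shares from 48.4% in mouse 1 over 53.8% to 56.0% in mouse 7, a log2 fold change of 0.22 and an FDR of 0.189, just under the threshold. Its call was lost on leaving out mouse 2, 3, 4, 5, 7 or 8, with FDRs from 0.253 to 0.345, and in DESeq2 (0.209), and kept with the mouse as block (0.0188).

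The other 6 antagonists were not called without the block. Notum had more B6 counts in all 7 mice, with CAST shares of 41.0% to 49.4% and a log2 fold change of -0.23 (FDR 0.220 from edgeR, 0.0750 with the block). Its totals were not whole numbers in any mouse, and its exons overlap those of the antisense genes Notumos and Myadml2os. Frzb had a log2 fold change of -0.14 (FDR 0.289, with the block 0.140) and CAST shares of 43.4% to 51.1%. Sost, Dkk2 and Sfrp1 had log2 fold changes of 0.07, -0.03 and -0.19. In each mouse Sfrp2 had equal counts on both alleles (within 1e-06), so its counts hold no information on the allele.

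**Figure D5:**
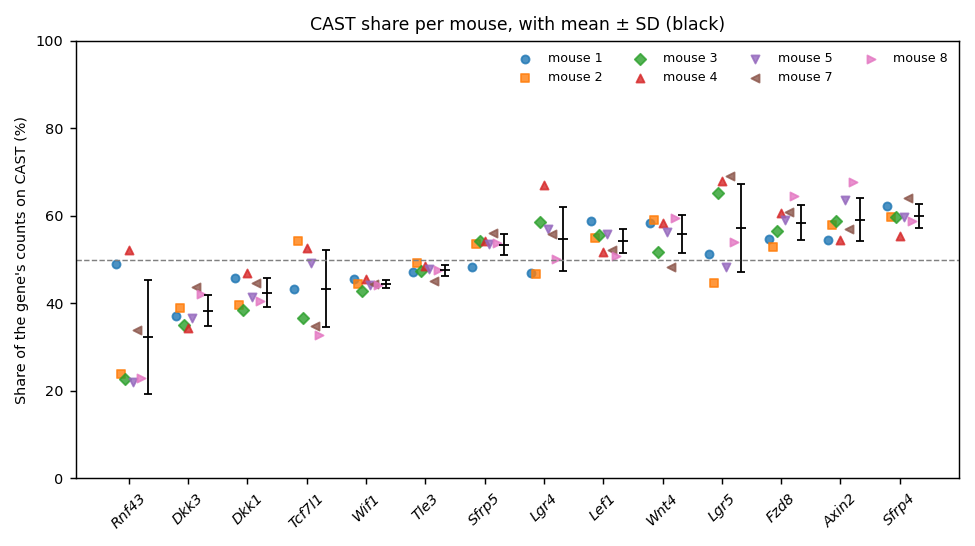
CAST share of each gene's counts in each of the 7 mice, with mean ± SD beside the points, for the 13 called genes and Tle3; the dashed line marks 50%. Dkk3, Dkk1, Wif1 and Tle3 lie below 50% and Lef1, Fzd8, Axin2 and Sfrp4 above it in every mouse, while Rnf43, Tcf7l1, Lgr4 and Lgr5 scatter widely.

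Among the ligands only Wnt4 (chr4:137277489-137299726, plus strand), best known from kidney and ovary development, was called. Its CAST share was 58.3%, 58.9%, 51.7%, 58.2%, 56.2%, 48.2% and 59.6% in mice 1, 2, 3, 4, 5, 7 and 8. Mouse 7, the library with the fewest counts, was the exception to a higher CAST allele. The means were 307 ± 103 CAST and 238 ± 74.9 B6 counts (SD, n = 7), with a log2 fold change of 0.37 (FDR 0.00584 from edgeR; exact sign-flip test, p = 0.0469). Wnt4 totals were not whole in any mouse, which marks reads divided with other genes. Wnt5b, the most abundant ligand, had 475 ± 122 CAST and 526 ± 172 B6 counts and a log2 fold change of -0.12 (FDR 0.693). Wnt5a reached an FDR of 0.0721 with the mouse as block, at a log2 fold change of 0.19 (0.432 without it).

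Of the 9 frizzled genes, Fzd8 alone was called without the block. It lies on chromosome 18 at chr18:9212163-9218136 (plus strand), and its CAST share ran from 52.9% in mouse 2 over a median of 58.9% to 64.6% in mouse 8. All 7 mice had more CAST counts, 300 ± 78.9 against 222 ± 89.0 (SD, n = 7), with a log2 fold change of 0.48 (FDR 0.0105 from edgeR). Fzd9, the most abundant frizzled gene, had a log2 fold change of 0.15 and an FDR of 0.527, or 0.0980 with the block, and Fzd1 had 0.04 and 0.980, or 0.683 with it. Fzd5 and Fzd7 were called with the block only, at log2 fold changes of -0.10 and -0.14 and FDRs of 0.146 and 0.150. Fzd2, Fzd3, Fzd4 and Fzd6 had log2 fold changes from -0.01 to 0.12.

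None of the co-receptors or tyrosine kinase receptors was called without the block, and the sizes of their log2 fold changes were 0.09 or less except for Ror1. Lrp6 had more B6 counts in every mouse, yet by little, with CAST shares of 46.3% to 49.996% and a log2 fold change of -0.09 (FDR 0.519 from edgeR, 0.0637 with the block). Lrp4 had 1949 ± 779 CAST and 2079 ± 801 B6 counts and Lrp5 had 1363 ± 463 and 1430 ± 570 (SD, n = 7), with FDRs of 0.810 and 0.990. Ryk was near parity on average, with 822 ± 254 CAST and 838 ± 269 B6 counts, but its CAST share spread from 42.4% in mouse 8 to 60.6% in mouse 4. Ror2 had 234 ± 77.6 CAST and 222 ± 68.6 B6 counts (FDR 0.780). Ror1, at a log2 fold change of -0.21, had an FDR of 0.562, and of 0.166 with the block.

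Axin2, a scaffold of the β-catenin destruction complex and itself a standard target gene of the pathway, had the second smallest FDR of the set. It lies at chr11:108920349-108950783 (plus strand), and its CAST share was 54.4%, 57.8%, 58.7%, 54.4%, 63.5%, 56.9% and 67.8% in mice 1, 2, 3, 4, 5, 7 and 8. The CAST allele was higher in all of them, with 160 ± 52.2 against 111 ± 42.3 counts (SD, n = 7), at a log2 fold change of 0.52 and an FDR of 0.00262 from edgeR. Of its exons, 209 bases overlap the antisense gene Gm11670, and whether the authors' counting used strand is not stated. Ctnnb1, with the most counts of the set, was at parity: 7100 ± 2525 CAST and 7089 ± 2478 B6 counts, CAST shares of 48.3% to 51.0% and a log2 fold change of 0.02 (FDR 0.997). Apc (-0.03, FDR 0.936) and Axin1 (0.14, FDR 0.324) were not called.

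Lef1 and Tcf7l1 were the called nuclear factors, in opposite directions. Lef1, an activator at β-catenin target genes (chr3:131110471-131224356, plus strand), had CAST shares from 50.8% in mouse 8 over a median of 54.9% to 58.7% in mouse 1. Its counts were 325 ± 150 CAST and 265 ± 101 B6 (SD, n = 7), with a log2 fold change of 0.28. The FDR of Lef1 was 0.103, which rose to 0.277 without mouse 1, and it was 0.0170 with the mouse as block. Its exons share 1208 bases with the antisense gene Gm43352. Tcf7l1, mainly a repressor (chr6:72626378-72789254, minus strand), had only 49.9 ± 18.6 CAST and 64.4 ± 22.6 B6 counts, and CAST shares from 32.7% to 54.3% that lay above 50% in mice 2 and 4. Its log2 fold change was -0.37 with an FDR of 0.177, lost with the block (0.235) and without mouse 1, 3, 7 or 8 (0.255 to 0.479). Tcf7 and Tcf7l2 had log2 fold changes of 0.19 and -0.14 (FDRs 0.524 and 0.464).

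Tle3 lies at chr9:61372366-61418497 (plus strand), inside the interval that the study drew for Feml2, its femur length locus. Its CAST share was 47.2%, 49.2%, 47.5%, 48.4%, 47.9%, 45.02% and 47.6% in mice 1, 2, 3, 4, 5, 7 and 8. The B6 allele was higher in every mouse, by a margin that varied little. The counts were 884 ± 355 CAST and 967 ± 377 B6 (SD, n = 7), and the log2 fold change was -0.12. The FDR was 0.503 without the block and 0.0167 with it (exact sign-flip test, p = 0.0156). Whether Tle3 was called thus depended on the block, while its direction did not.

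The R-spondin branch, which sets how much frizzled protein stays on the cell surface, held 3 called genes of 4 (background 32.6%), on few counts or with wide shares. Rnf43, a ligase that removes frizzled receptors (chr11:87662722-87735539, plus strand), had 7.68 ± 5.12 CAST and 17.0 ± 9.20 B6 counts (SD, n = 7) and the largest fold change of the set, -1.08 on the log2 scale (FDR 0.00500 from edgeR). Its CAST share was 49.0%, 23.9%, 22.6%, 52.1%, 22.02%, 33.8% and 23.0% in mice 1, 2, 3, 4, 5, 7 and 8, on totals of 10 to 42 counts. Mice 1 and 4 were near parity and the other 5 well below it.

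Lgr5, an R-spondin receptor and stem cell marker (chr10:115450311-115587780, minus strand), had CAST shares of 51.2%, 44.7%, 65.3%, 68.0%, 48.2%, 69.0% and 54.0% in the same order of mice. Mice 3, 4 and 7 carried the difference. Its log2 fold change was 0.40 with an FDR of 0.101, which rose to 0.346, 0.288 and 0.298 without mouse 3, 4 and 7 and to 0.242 with the block. Lgr4, the more abundant receptor (chr2:109917647-110014257, plus strand), had CAST shares from 46.6% in mouse 2 over a median of 55.9% to 67.0% in mouse 4. Its counts were 455 ± 154 CAST and 392 ± 163 B6, with a log2 fold change of 0.27 and an FDR of 0.150. The call was lost without mouse 3, 4, 5 or 7 (0.264 to 0.415) and with the block (0.264), and without mouse 4 the log2 fold change was 0.16. Znrf3, the partner ligase of Rnf43, had a log2 fold change of 0.21 and an FDR of 0.218, or 0.102 with the block.

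Promoter sequence was looked up because Axin2 and Lef1 are both members and readouts of the pathway. A RefSeq table of GRCm38.p6 held 30 of the 46 genes, in 40 windows of 250 bases before to 50 bases after a start. Each window was searched on both strands for the letters CTTTGNN, with A or T at each N, the core bound by Tcf and Lef factors. They were found in 6 of the 40 windows (15%) and in 5544 of all 32851 windows (16.9%). The members with a match were Dkk1, Fzd7, Lef1 (1 match over its 4 windows), Tcf7l2, Wnt11 and Wnt5b, and Axin2 had none. Axin2, Wif1 and Dkk1 are shown, the 3 genes in the table with the smallest FDR among those called with the same sign in all 7 mice. Printed are the 250 bases before each start in the B6 reference, 5′ to 3′ on the gene's strand, with matches in capitals. The windows are Axin2 at chr11:108920099-108920348 (plus), Wif1 at chr10:121033754-121034003 (plus, ending 44 bases after the annotated gene start) and Dkk1 at chr19:30549497-30549746 (minus, ending 169 bases after it).

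Axin2: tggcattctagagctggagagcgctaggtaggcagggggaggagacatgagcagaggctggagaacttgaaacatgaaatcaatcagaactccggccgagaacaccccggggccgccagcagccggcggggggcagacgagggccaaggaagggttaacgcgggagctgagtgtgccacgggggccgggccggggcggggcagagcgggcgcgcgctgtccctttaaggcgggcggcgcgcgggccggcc
Wif1: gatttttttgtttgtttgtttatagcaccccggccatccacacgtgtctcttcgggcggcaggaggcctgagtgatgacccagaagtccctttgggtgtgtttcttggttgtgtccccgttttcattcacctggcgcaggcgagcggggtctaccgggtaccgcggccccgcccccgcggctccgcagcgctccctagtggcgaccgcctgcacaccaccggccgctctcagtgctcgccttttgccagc
Dkk1: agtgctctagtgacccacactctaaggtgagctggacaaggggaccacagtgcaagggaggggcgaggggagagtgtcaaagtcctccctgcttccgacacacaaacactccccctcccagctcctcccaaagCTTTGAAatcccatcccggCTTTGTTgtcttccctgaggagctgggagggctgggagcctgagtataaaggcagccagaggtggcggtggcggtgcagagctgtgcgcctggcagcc

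The Dkk1 stretch held 2 matches, which start 117 and 98 bases before the start, and the Axin2 and Wif1 stretches held none. The absence says only that these letters are not in these windows. All 3 stretches were rich in G and C, at 69.2%, 62.8% and 60.8% of bases. Bases that differ in CAST were not analysed here.

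Shared reads set a limit on some of these values. Totals differed from a whole number by more than 1e-04 in every mouse for Wnt4, Fzd5, Sfrp2, Notum, Ctnnb1 and 1 further gene, Lgr5, which marks reads divided with other genes. Such totals occurred in at least 1 mouse for 16 of the 46 genes, and 30 had whole totals throughout. Among these 30, fitted with other genes of whole totals alone, 8 were called (26.7%), 4 in each direction, against 32.6% of the 10601 genes in that fit. Exons of Axin2, Ctnnb1, Fzd5, Fzd6, Lef1, Notum, Sfrp2, Tcf7l1, Wnt11 and Wnt5a overlap another annotated gene on the opposite strand.

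Outside the 46 genes, 62 further genes of the pathway were examined as a list. Of these, 55 could be tested and 18 were called (32.7%, near the background), with CAST higher for 8 and B6 for 10. On the autosomes 15 of 52 were called (28.8%, against 31.2% of all autosomal genes tested), 8 with CAST higher and 7 with B6. The 3 X-linked genes tested, Porcn, Gpc3 and Gpc4, had CAST shares of 0.141% to 11.7% on average, and male mice carry only the maternal X. These shares place that X on the B6 side, so no CAST copy of Porcn was present. CAST counts were still assigned to Porcn, up to a share of 19.5% in mouse 8. Their source was not tested, nor was how far such counts enter the autosomal shares.

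In 14 of the 18 the same allele was higher in every mouse. These include the 3 X-linked genes, whose direction follows from the single X of a male. How often called genes of the whole table keep 1 direction in every mouse was not computed. Cby1, a β-catenin antagonist of the nucleus, had 379 ± 92.2 CAST and 152 ± 56.2 B6 counts and a log2 fold change of 1.38, and Aes, a short Groucho-family protein, had a log2 fold change of 1.00 on CAST shares of 63.9% to 69.1%. Celsr1, a planar polarity cadherin, went the other way at -1.18 (FDR 6.35e-14 from edgeR). In size, Cby1 and Celsr1 exceeded the change of every gene among the 46, and Aes that of every one except Rnf43. The planar polarity genes Prickle1 (0.34) and Vangl2 (-0.36), the receptor gene Fzd10 (0.96) and the R-spondin gene Rspo3 (0.75, with 60.2 ± 20.3 CAST and 37.2 ± 14.0 B6 counts) were also called. Smaller changes were those of the co-repressor Tle1 (-0.24), the β-catenin co-factor Pygo2 (-0.30) and the kinase gene Csnk1a1 (0.15, CAST shares of 51.7% to 52.8%). Dkkl1 had a log2 fold change of -2.24 on 1.64 ± 1.82 CAST and 8.21 ± 3.84 B6 counts.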

How the data were processed

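RNA was extracted from dissected tibial growth plates, made into stranded total RNA libraries depleted of ribosomal RNA and sequenced in pairs. The authors aligned reads with Bowtie, with at most 3 mismatches, to a joint B6 and CAST transcriptome (mm10) and used EMASE to divide them among genes and alleles. The deposited values are estimated counts per gene, for B6, CAST and their total, not normalized. Their totals, 14098019 to 37849667 per mouse, exceed the number of read pairs that the labels give, so counts may not be independent molecules, and values of rarely counted genes are the least precise. Use of strand in the counting is not stated in the sources used here.

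Names, exon lengths and coordinates came from GENCODE release M21 (GRCm38), which held 42462 of 43346 identifiers (98.0%). Levels are CPM of both alleles, with ranges and SD over 7 mice. Counts were rounded, and columns were compared between alleles with edgeR 4.0.16 (R 4.3.3) by glmFit and glmLRT, which the study's methods name, with TMM factors and estimateDisp, chosen here, and Benjamini-Hochberg FDR over the 21805 genes whose B6 or CAST count was above 0 in each of the mice. Estimated counts can be fractions, and 1406 of these genes averaged under 1 count. Ratios for single mice are log2 with a pseudocount of 0.5, tested over mice by an exact two-sided sign-flip test, and relations to markers by exact permutation (5040 orders). The fit was checked on simulated counts, drawn independently for each column and with changes larger than most of those given here. That check therefore does not cover alleles that share a library, or small changes.

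Alleles of a mouse share a library. Their deviations from the allele means correlated at 0.18 on average within mice (lowest 0.05) and at -0.03 between mice (highest 0.24) over 15111 genes, so blocked values are given. Alternatives were DESeq2 1.42.0, edgeR's quasi-likelihood test, the mouse as block, other library sizes, filters and gene sets, unrounded counts, another threshold or pseudocount, other CPM totals, and each mouse left out. The 46 genes, the pathway and marker lists and the tests were chosen with earlier results of these data known. Genes were given in full when called with the same direction in at least 6 mice, when among the 2 highest per kb of their role, and for Tle3. Lgr5 and Tcf7l1, called with 5 mice in that direction, were added after their values were seen. Figures were drawn with matplotlib 3.10.9.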

Additional observations from a re-analysis of the deposited data

Results flagged for a closer look

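A value was picked out when 1 of the 7 mice lay far from the other 6, by Dixon's test at 95%, for the level in CPM or the log2 ratio of CAST to B6. Of 91 sets of values, 5 were picked out, and chance alone gives about 1 in 20, or 4.55. For levels, mouse 3 stood above the others for Wnt10b (8.26 CPM, others 4.64 to 5.61), Wnt16 (7.209 CPM, others 1.77 to 4.04) and Fzd6 (16.23 CPM, others 7.43 to 9.72). For allele ratios, Fzd2 in mouse 7 had a log2 ratio of 0.7291, whereas the other mice had -0.32 to 0.02, and Sfrp5 in mouse 1 had -0.09295, whereas the others had 0.20 to 0.35.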

How the results depend on the processing

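With a replicate block for the mouse, the 13 calls became 26 and 20 (likelihood-ratio and quasi-likelihood test). They were 8 with whole totals only, where 30 of the 46 genes could be fitted, and 7 at an FDR under 0.05. CAST-higher calls numbered 5 with 1 library size per mouse, 4 with whole totals, 4 at an FDR under 0.05 and 5 to 7 with each mouse left out (5 without mouse 4 or mouse 7). B6-higher calls were 14 and 11 with the block and 3 at an FDR under 0.05. Over the whole table, whole totals gave 3453 calls of 10601 genes. Without the block, the quasi-likelihood test called the same 13, and DESeq2 12 of them and Frzb but not Sfrp5. Reversals touched values near 0: Ryk was 0.000996 with the block (likelihood-ratio test) and -0.104 to 0.0643 with each mouse left out, Lrp5 -0.0766 to 0.0267 and Fzd1 -0.00298 to 0.0569. None of the 13 called genes changed direction under the alternatives run for them. Without Rn7s1, Rn7s2 and Rn7sk in the totals, the summed CPM of the groups rose to 122 (ligands), 241 (frizzled), 420 (co-receptors), 108 (tyrosine kinase), 449 (antagonists), 779.6 (cytoplasmic), 148 (nuclear) and 60.8 (R-spondin branch), from 97.2, 193, 337, 86.2, 359, 625, 119 and 48.7. Wnt5b with hypertrophic markers passed 0.05 after adjustment without these RNAs (r = 0.89) and with TMM scaling (r = 0.94). Under TMM scaling r was 0.0524 for Frzb and -0.15 for Lef1. With each mouse left out, r ran from -0.68 to 0.44 for Frzb, -0.24 to 0.67 for Sost, -0.26 to 0.36 for Wif1, -0.42 to 0.28 for Wnt16 and -0.23 to 0.26 for Lef1. The cause of these changes was not tested.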
